A study of Mus musculus with 9 samples.

Results

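Expression of 8 genes of antigen presentation by major histocompatibility complex (MHC) class II was followed across hippocampal RNA libraries of a mouse model of lupus. The genes were chosen by name and comprised H2-Aa, H2-Ab1, H2-Eb1, H2-DMa, H2-DMb1, H2-DMb2, Cd74 and Ciita, which are 8 of the 47643 genes counted. All 8 were found by symbol, each with a single gene identifier. MRL/mpj mice were the controls, and MRL/lpr mice have the same background with the lpr mutation in Fas, a death receptor gene, and develop lupus without treatment. A further group, MRL/lpr+MSC, had the MRL/lpr genotype and had received mesenchymal stem cells, whose source, dose, route and time are not given in the sources used here. Each group had 3 libraries of hippocampus from mice aged 6 weeks, and the MRL/mpj and MRL/lpr mice were untreated. In the submitters' labels the controls are wild type and the strain is C57BL/6 for every one of the 9 libraries, whereas the study describes MRL strains, whose names are kept here. The lpr mutation is inherited and therefore in all cells, so these groups are not a model of a change made in brain cells alone.

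MHC class II molecules are pairs of an alpha and a beta chain that show peptides to CD4+ T cells. In the mouse, H2-Aa and H2-Ab1 encode the chains of the I-A molecule, and H2-Eb1 encodes the beta chain of I-E. Cd74, the invariant chain, fills the groove of new class II molecules and guides them to endosomes. The H2-DM heterodimer, with its alpha chain from H2-DMa and its beta chain from H2-DMb1 or H2-DMb2, then removes the remaining fragment of Cd74 and helps load peptide. Ciita is the coactivator on which transcription of these genes depends, and interferon gamma is the classical inducer of Ciita. In healthy brain, class II is found mainly on macrophages at the borders, on dendritic cells and on few microglia, which can gain it during inflammation.

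Libraries held between 19475804 and 26912031 counts, so 3 counts, the upper limit that a count of 0 allows, corresponded to 0.111 to 0.154 CPM, the count relative to the library total. This limit covers counting error only. Levels are given in CPM after TMM scaling, and as FPKM, which also divide by gene length, where genes are compared with each other. All 7 hippocampal neuron markers were detected in every library, with summed levels of 982 to 1181 CPM in MRL/mpj, 599 to 824 CPM in MRL/lpr and 705 to 879 CPM in MRL/lpr+MSC. Fas did not separate the groups, at 1.83 ± 0.183 CPM in MRL/mpj, 1.79 ± 0.469 in MRL/lpr and 1.30 ± 0.445 in MRL/lpr+MSC (SD, n = 3 each). Replicate 2 of MRL/lpr and replicate 2 of MRL/lpr+MSC stood apart through choroid plexus genes, among them Ttr, the transthyretin gene, at 8870 and 4422 CPM against 50.9 to 929 CPM in the other 7 libraries.

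The labels of the 2 MRL/lpr groups could not be settled. In normalised values that accompany the study, each column named for an MRL/mpj mouse equalled the counts of an MRL/mpj library times 1 factor. Each column named for an MRL/lpr mouse equalled, times 1 factor, the counts of a library that the deposited labels call MRL/lpr+MSC, within 1% for 100% of the genes compared in each of these 3 columns. The deposited labels were kept, and MRL/lpr and MRL/lpr+MSC mean the libraries so labelled in all that follows. The pathway lists that the study gives for MRL/lpr mice go with the deposited labels instead. They name Ifng, H2-DMb1 and H2-DMb2, whose levels lay above MRL/mpj in the libraries labelled MRL/lpr and overlapped MRL/mpj in those labelled MRL/lpr+MSC. If these 2 labels are exchanged, the first 2 comparisons below change places and the third changes sign, whereas the mean of both MRL/lpr groups against MRL/mpj stays as it is. In whole hippocampus, a change in the number of cells of a type and a change in RNA per cell cannot be told apart.

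Transcripts of the classical chains were scarce in control hippocampus, with 4 to 44 counts per library, and had higher levels in every MRL/lpr library. H2-Aa (ENSMUSG00000036594, chr17:34282744-34287823, minus strand, GRCm38) was measured at 0.349, 0.215 and 0.218 CPM in the MRL/mpj libraries, at 40.6, 31.9 and 9.59 CPM in MRL/lpr and at 1.14, 5.29 and 4.77 CPM in MRL/lpr+MSC. The groups did not overlap for H2-Aa, with MRL/lpr highest and MRL/mpj lowest. H2-Ab1 (ENSMUSG00000073421, chr17:34257689-34269419, plus strand) had 0.599, 0.387 and 0.871 CPM in MRL/mpj, 17.1, 15.3 and 4.73 CPM in MRL/lpr and 0.622, 2.74 and 2.30 CPM in MRL/lpr+MSC. Replicate 1 of MRL/lpr+MSC lay inside the MRL/mpj range for this gene, and the other 2 libraries of that group lay above it. H2-Eb1 (ENSMUSG00000060586, chr17:34305867-34316674, plus strand) had 0.649, 1.89 and 0.599 CPM in MRL/mpj, 65.3, 55.5 and 15.9 CPM in MRL/lpr and 1.04, 7.06 and 8.04 CPM in MRL/lpr+MSC. As for H2-Ab1, MRL/lpr lay above the other groups and replicate 1 of MRL/lpr+MSC lay inside the MRL/mpj range. H2-Eb1 overlaps Gm20513, an antisense gene whose level reached at most 0.175 CPM, and the use of strand in counting is not stated.

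Cd74 (ENSMUSG00000024610, chromosome 18, plus strand) had the highest mean level of the 8 genes in both MRL/lpr groups, although H2-DMa exceeded it in replicate 1 of MRL/lpr+MSC. It was measured at 3.14, 2.84 and 1.03 CPM in MRL/mpj, at 160 (replicate 1), 113 (replicate 2) and 46.1 CPM (replicate 3) in MRL/lpr and at 2.70, 19.1 and 22.0 CPM in MRL/lpr+MSC. All MRL/lpr libraries lay above every other library, and replicate 1 of MRL/lpr+MSC was again within the MRL/mpj range.

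The 3 genes of the H2-DM peptide editor did not behave alike. H2-DMa (ENSMUSG00000037649, chr17:34119541-34139101, plus strand), the alpha chain, was present in every library at similar levels, with 12.9, 13.2 and 12.2 CPM in MRL/mpj, 16.1, 15.8 and 10.9 CPM in MRL/lpr and 11.5, 10.2 and 10.7 CPM in MRL/lpr+MSC. MRL/lpr overlapped both other groups. The beta chain genes were low throughout. H2-DMb1 (ENSMUSG00000079547, chr17:34153072-34160230, plus strand) had 0.499, 0.387 and 0.163 CPM in MRL/mpj, 2.48, 1.33 and 0.634 CPM in MRL/lpr and 0.467, 0.325 and 0.486 CPM in MRL/lpr+MSC. H2-DMb2 (ENSMUSG00000037548, chr17:34143307-34151555, plus strand) had 0.200, 0.473 and 0.218 CPM in MRL/mpj, 2.69, 2.67 and 0.549 CPM in MRL/lpr and 0.311, 0.279 and 0.442 CPM in MRL/lpr+MSC. For both beta chain genes, MRL/lpr lay above the other groups, which overlapped. H2-DMb1 and H2-DMb2 are close copies, so the split of reads between them is uncertain. Ciita (ENSMUSG00000022504, chr16:10480059-10528418, plus strand) had 0.998, 1.03 and 1.09 CPM in MRL/mpj, 6.60, 5.34 and 1.56 CPM in MRL/lpr and 0.985, 1.30 and 1.68 CPM in MRL/lpr+MSC. Replicate 3 of MRL/lpr was above every MRL/mpj library for Ciita and below replicate 3 of MRL/lpr+MSC.

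**Figure D1:**
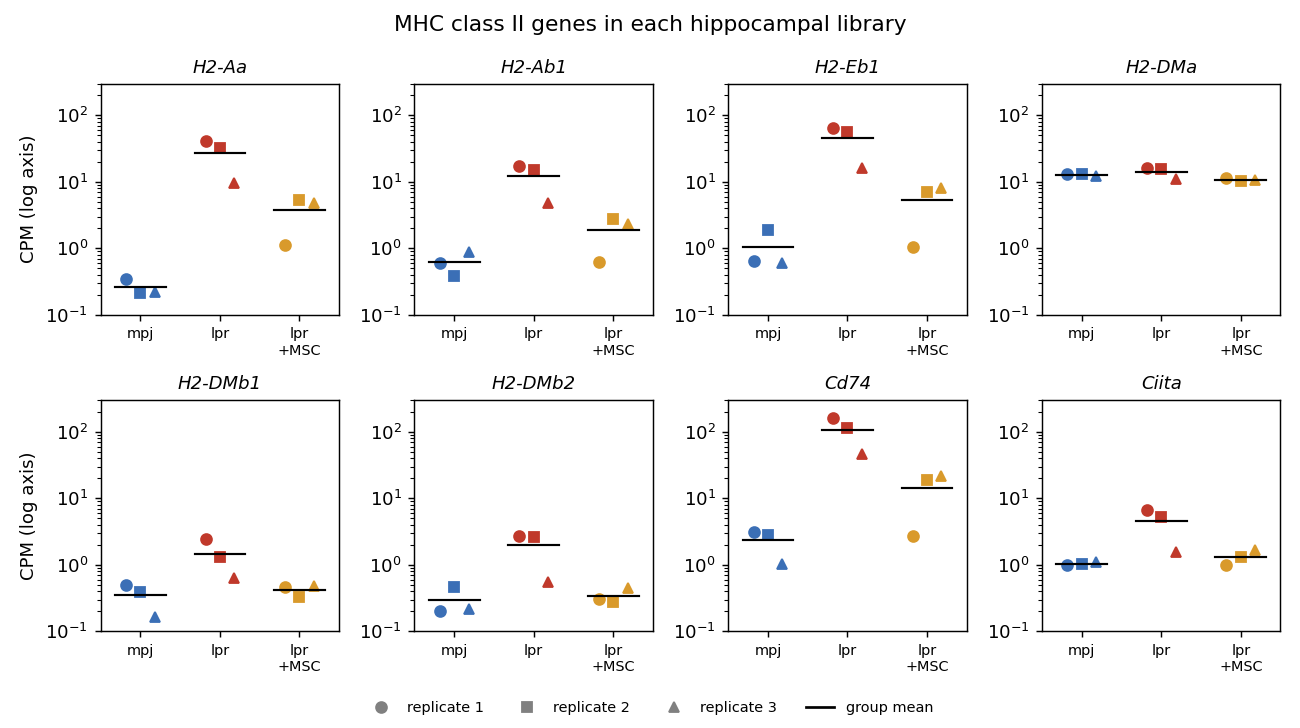
CPM on a log axis for the 8 genes, with 1 point per library, marker shape for the replicate number and a black bar for the group mean (n = 3 per group). The MRL/lpr points lie above all MRL/mpj points for every gene but H2-DMa, and within MRL/lpr replicate 3 is the lowest in all 8 panels.

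The libraries of a group ranked in the same order from gene to gene in MRL/lpr. Replicate 1 was the highest and replicate 3 the lowest of that group for 8 of the 8 genes. The highest MRL/lpr library exceeded the lowest by 3.48-fold for Cd74, 3.62-fold for H2-Ab1, 3.92-fold for H2-DMb1, 4.11-fold for H2-Eb1, 4.22-fold for Ciita, 4.23-fold for H2-Aa and 4.90-fold for H2-DMb2, and by 1.47-fold for H2-DMa. In MRL/lpr+MSC, replicate 1 was the lowest for 5 genes, and the spread was 8.14-fold for Cd74 and 7.75-fold for H2-Eb1.

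Per gene length, the order of the genes differed between groups. In MRL/mpj, H2-DMa was highest at 7.80 ± 0.266 FPKM (SD, n = 3), Cd74 followed at 1.66 ± 0.802 FPKM and H2-Eb1 at 0.884 ± 0.615 FPKM, and the spreads of the last pair overlapped. The other 5 genes were between 0.139 and 0.380 FPKM. In MRL/lpr, Cd74 was highest at 75.0 ± 40.3 FPKM, followed by H2-Eb1 at 38.2 ± 21.9, H2-Aa at 14.5 ± 8.45, H2-DMa at 8.63 ± 1.71 and H2-Ab1 at 7.51 ± 4.04 FPKM (SD, n = 3 each). Each of these overlapped its neighbour in the order within 1 SD. The SD is a spread between libraries, which ranked alike for all these genes in MRL/lpr. Overlap of the SDs therefore does not measure the order of the genes within a library. H2-DMb2, H2-DMb1 and Ciita were the lowest, at 1.14, 0.991 and 0.850 FPKM. In MRL/lpr+MSC, Cd74 had 10.3 ± 7.33 FPKM and H2-DMa 6.58 ± 0.441 FPKM (SD, n = 3), and the order of this pair was not separated by the spread.

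The first comparison, MRL/lpr against MRL/mpj, asks how gene expression in the hippocampus of the lupus-prone strain differs from that of its control. All 8 genes had a positive log2 fold change, with a median of 3.32 against 0.02 over all 16697 genes tested. A change was called at an adjusted p under 0.05 and at least 1.5-fold. Cd74 rose, and it was the only 1 of the 8 genes called, where 5.79% of all genes tested were called, 3.41% as higher and 2.38% as lower. The mean was 2.34 ± 1.14 CPM in MRL/mpj and 107 ± 57.5 CPM in MRL/lpr (SD, n = 3 each), a 45.6-fold difference, and the fitted log2 value was 5.44 (standard error 1.12, 95% confidence interval 2.76 to 8.12, adjusted p = 0.0358, limma voom). The call for Cd74 was lost without MRL/lpr replicate 1 (adjusted p = 0.0547, limma voom) and without any 1 of the 3 MRL/mpj libraries (adjusted p = 0.125 to 0.13, limma voom), although its log2 fold change stayed between 4.98 and 5.95.

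The other 7 genes did not pass the adjusted threshold in this comparison. H2-Aa had the largest fitted difference, with means of 0.261 ± 0.0769 and 27.4 ± 16.0 CPM (SD, n = 3 each), a 105-fold difference of means and a fitted log2 difference of 6.42 (SE 1.87, adjusted p = 0.0776, limma voom). H2-Eb1 differed 43.6-fold by its means, with a fitted log2 difference of 5.35 (SE 1.56, adjusted p = 0.0769, limma voom). H2-Ab1 differed 20.03-fold, with a fitted log2 difference of 4.20 (SE 1.08, adjusted p = 0.0597, limma voom). The differences were smaller for the remaining genes. The log2 fold change was 2.43 for H2-DMb2 (95% interval 0.27 to 4.59), 1.95 for H2-DMb1 (0.31 to 3.59) and 1.89 for Ciita (0.17 to 3.61), with adjusted p of 0.13, 0.115 and 0.135 from limma voom. H2-DMa differed by 0.15 on the log2 scale (95% interval -0.26 to 0.55, adjusted p = 0.592, limma voom), so that a change of 1.5-fold in either direction lay outside the interval.

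At an unadjusted p under 0.05, 7 of the 8 genes were higher in MRL/lpr, against 15.7% of all genes tested, and the same 7 genes had no overlap between the groups, against 19.4% of all genes tested. Only 4 of the 8 genes, Cd74, Ciita, H2-DMa and H2-Eb1, exceeded the filter on low counts in all 3 MRL/mpj libraries, whereas all 8 exceeded it in MRL/lpr, so 4 genes could be tested only because of their level in MRL/lpr, and the counts over the 8 genes carry no weight as a test. Without MRL/lpr replicate 3, 7 genes were called, all but H2-DMa, with log2 fold changes from 2.43 for H2-DMb1 to 7.03 for H2-Aa and adjusted p from 0.0019 to 0.0343 (limma voom). That library was the lowest of its group for all 8 genes, so this count carries no weight as a test either. The number of all genes called also varied with the library left out, as given further below.

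**Figure D2:**
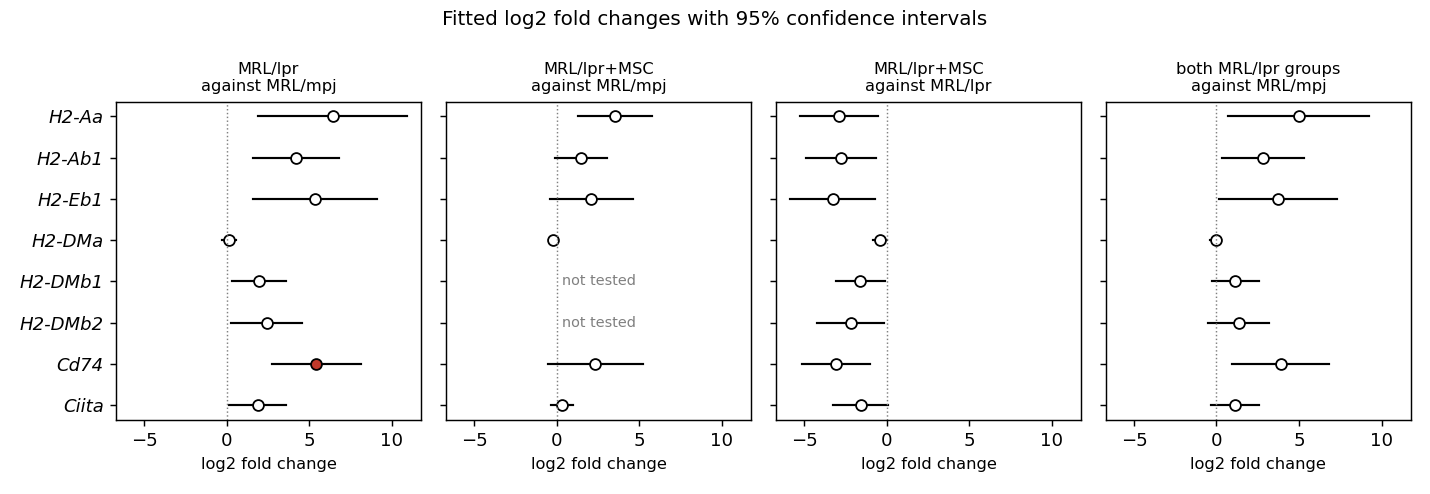
Fitted log2 fold changes (points) with 95% confidence intervals (lines) of the 8 genes in 4 comparisons, filled in red where the change was called. Cd74 in MRL/lpr against MRL/mpj, at 5.44, is the only filled point, H2-DMa stays near 0 in all panels, and H2-DMb1 and H2-DMb2 were not tested in MRL/lpr+MSC against MRL/mpj.

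In MRL/lpr+MSC against MRL/mpj, 6 genes were tested, since H2-DMb1 and H2-DMb2 did not pass the filter on low counts there. None of the 6 was called by limma voom, where 3.43% of all 16196 genes tested were called, and 2 of the 6 had an unadjusted p under 0.05, against 22.9% of all genes tested. The 2 were H2-Aa, which was higher, and H2-DMa, which was lower, against 12.2% higher and 10.7% lower over all genes tested. The same pair were the genes without overlap, against 15.2% of all genes tested above and 14.4% below. H2-Aa and H2-Ab1 exceeded the filter on low counts in all 3 MRL/lpr+MSC libraries but not in all 3 MRL/mpj libraries. They could be tested only because of their level in MRL/lpr+MSC, so these counts carry no weight as a test. H2-Aa was 14.3-fold higher by its means, at 3.74 ± 2.26 CPM (SD, n = 3), with a fitted log2 difference of 3.53 (SE 0.94, adjusted p = 0.0857, limma voom). The log2 fold change was 2.34 for Cd74, 2.10 for H2-Eb1, 1.46 for H2-Ab1 and 0.33 for Ciita, with adjusted p of 0.302, 0.292, 0.249 and 0.533 from limma voom. H2-DMa differed by -0.24 (95% interval -0.48 to -0.003, adjusted p = 0.215, limma voom). Without MRL/lpr+MSC replicate 1, whose levels resembled those of MRL/mpj, 4 genes were called, namely H2-Aa, H2-Ab1, H2-Eb1 and Cd74, with log2 fold changes of 4.18, 2.08, 2.97 and 3.23 and adjusted p from 0.0014 to 0.0107 (limma voom). That library was singled out by its levels of these genes, so this count carries no weight as a test. The number of all genes called was also highest with this library left out.

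MRL/lpr+MSC against MRL/lpr asks whether hippocampal expression differed after mesenchymal stem cells. All 8 genes were lower in MRL/lpr+MSC by their fitted values, with a median log2 fold change of -2.46 against 0.00 over all 16758 genes tested. None was called by limma voom, where 0.0% of all genes tested were called, nor by limma-trend or with library quality weights. At an unadjusted p under 0.05, 6 of the 8 genes were lower, against 2.64% of all genes tested, and 6 had no overlap between the groups, against 5.71%, with H2-DMa and Ciita as the exceptions to both counts. H2-DMb1 and H2-DMb2 exceeded the filter on low counts in all 3 MRL/lpr libraries and in only 1 MRL/lpr+MSC library each, so they could be tested only because of their level in MRL/lpr, and these counts carry no weight as a test. The 3 classical chain genes and Cd74 had log2 fold changes between -3.25 and -2.74, which corresponded to means that were 6.57-fold lower for H2-Ab1, 7.31-fold for Cd74, 7.33-fold for H2-Aa and 8.47-fold for H2-Eb1. The adjusted p was 0.921 for all 8 genes (limma voom). The intervals were wide, from -5.15 to -1.03 for Cd74 and from -3.22 to 0.10 for Ciita. This comparison shares its MRL/lpr libraries with the first and its MRL/lpr+MSC libraries with the second, so the 3 sets of values are not independent of each other.

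The contrast that an exchange of labels leaves as it is set the mean of both MRL/lpr groups against MRL/mpj. In it, 7 of the 8 genes had a positive log2 fold change (median 2.08 against 0.02 over all 17113 genes tested), and none was called by limma voom, where 4.87% of all genes tested were called. The log2 fold change was 4.97 for H2-Aa, 3.88 for Cd74, 3.72 for H2-Eb1 and 2.83 for H2-Ab1, with unadjusted p under 0.05 for these 4 genes, against 14.3% of all genes tested in that direction and 28.2% in either, and adjusted p of 0.129, 0.0948, 0.165 and 0.136 (limma voom). H2-Aa was the only 1 of the 8 genes whose 6 libraries from MRL/lpr mice all lay above the MRL/mpj libraries, a separation upward that 9.96% of all genes tested had. H2-Aa, H2-Ab1, H2-DMb1 and H2-DMb2 exceeded the filter on low counts in all 3 MRL/lpr libraries but not in all 3 MRL/mpj libraries. They could be tested only because of their level in MRL/lpr mice, so these counts carry no weight as a test. The log2 fold change of H2-DMa was -0.05 (95% interval -0.37 to 0.26). Without MRL/lpr replicate 3, 5 genes were called (H2-Aa, H2-Ab1, H2-Eb1, H2-DMb2 and Ciita), and without MRL/lpr+MSC replicate 1, Cd74 was called (adjusted p = 0.0353, limma voom). The former library was the lowest of its group for all 8 genes and the latter for 5. Calls made without them therefore carry no weight as a test.

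Ratios of counts within a library were compared for pairs of class II genes. There were 2.37, 2.08 and 2.03 counts of H2-Aa per count of H2-Ab1 in the MRL/lpr libraries and 1.83, 1.93 and 2.08 in MRL/lpr+MSC, although the level of H2-Aa itself spanned 1.14 to 40.6 CPM over these 6 libraries. In MRL/mpj, where H2-Aa had 4 to 7 counts, this ratio was 0.583, 0.556 and 0.25. Counts of H2-Eb1 per count of Cd74 were 0.407, 0.490 and 0.345 in MRL/lpr and 0.385, 0.370 and 0.366 in MRL/lpr+MSC, and 0.206, 0.667 and 0.579 in MRL/mpj. The ratio of Ciita to Cd74 was less even, at 0.0412, 0.0472 and 0.0339 in MRL/lpr, 0.365, 0.0681 and 0.0765 in MRL/lpr+MSC and 0.317 to 1.05 in MRL/mpj. Across the 9 libraries, each gene's log2 CPM had a Pearson correlation of 0.91 to 0.98 with the mean of the other 7 genes, apart from 0.61 for H2-DMa. These coefficients are descriptions over 9 libraries in 3 groups, and the libraries share depth and RNA composition.

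The alpha partner of H2-Eb1 is encoded by H2-Ea-ps, which the annotation lists as a polymorphic pseudogene, since C57BL/6 and other strains of its haplotype do not make this chain. It is outside the set of 8 genes. Its levels were 0.399, 0.00 and 0.109 CPM in MRL/mpj, 35.8, 31.3 and 10.1 CPM in MRL/lpr and 0.674, 5.06 and 4.73 CPM in MRL/lpr+MSC, in the same order as those of H2-Eb1 within the latter 2 groups except for the last 2 libraries. It was not called in MRL/lpr against MRL/mpj (log2 fold change 7.74, standard error 2.12, adjusted p = 0.0687, limma voom) nor in the other comparisons. Among the other class II genes, H2-Ob, a chain of the H2-O inhibitor of H2-DM, had 0.258 to 1.40 CPM in MRL/mpj, 1.10 to 3.56 in MRL/lpr and 1.07 to 1.30 in MRL/lpr+MSC, with no call. H2-Oa, its partner, reached at most 0.839 CPM and H2-Eb2 at most 0.384 CPM, and both failed the filter on low counts in all comparisons.

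Promoter sequences are shown for 3 genes that were higher in MRL/lpr libraries, because class II promoters are known for an X box, bound by the RFX complex, and a Y box, an inverted CCAAT box bound by NF-Y, at a set distance from each other. Ciita acts through these factors. The sequences are from RefSeq on GRCm38.p6 and run 5′ to 3′ on the strand of the gene. Of the 8 genes, 5 had a promoter entry (H2-Aa, H2-Eb1, H2-DMa, H2-DMb1 and H2-DMb2), with 2 entries for H2-DMa. The windows lie at chr17:34287861-34287910 (minus strand) for H2-Aa, at chr17:34305770-34305818 (plus strand) for H2-Eb1 and at chr17:34145117-34145169 (plus strand) for H2-DMb2, upstream of the RefSeq start, and capitals mark GNAAC (first) and TGATTGG (second).
H2-Aa: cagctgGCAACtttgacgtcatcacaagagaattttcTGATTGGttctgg
H2-Eb1: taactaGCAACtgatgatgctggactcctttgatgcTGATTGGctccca
H2-DMb2: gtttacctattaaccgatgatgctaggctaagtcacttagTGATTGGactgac

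These letters were chosen after the sequences had been read. TGATTGG on either strand was present in the promoters of H2-Aa, H2-Eb1, H2-DMb1 and H2-DMb2 and in 7.82% of all 32851 promoter entries of 300 bases. GNAAC 15 to 40 bases before TGATTGG on the same strand was present in H2-Aa, H2-Eb1 and H2-DMb1, with a gap of 26, 25 and 26 bases, and in 0.715% of all entries, counting both strands. H2-DMb2 had TGATTGG without GNAAC at that distance. Neither entry of H2-DMa held TGATTGG. Both entries of H2-DMa and the entry of H2-DMb2 lie downstream of the annotated start of their gene, and the sequence at that start was not examined. The window printed for H2-DMb2 thus lies inside the annotated gene. A match is a description of letters and not of a bound site, and no match says nothing about binding.

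Of the 8 genes, 6 lie in 1 stretch of chromosome 17 that also holds genes of class I presentation. The annotation has 17 genes between H2-DMa and H2-Eb1, ends included, of which 15 were in the matrix and 11 were tested in MRL/lpr against MRL/mpj. All 11 had a positive log2 fold change (median 2.27 against 0.02 over all genes tested), none was called by limma voom, against 5.79% of all genes tested, and 10 were higher at an unadjusted p under 0.05, against 15.7%. H2-Aa, H2-Ab1, H2-DMb1, H2-DMb2 and H2-Ob among them passed the filter on low counts only through MRL/lpr, so these counts carry no weight as a test. The 5 of the 11 that are outside the 8 genes were Psmb9 and Psmb8, subunits of the immunoproteasome, Tap1 and Tap2, which form the peptide transporter for class I, and H2-Ob. Psmb9 and Tap1 rose in MRL/lpr+MSC against MRL/mpj, where 1.93% of all genes tested were called as higher. Psmb9 had 1.80, 1.38 and 1.42 CPM in MRL/mpj, 18.7, 9.30 and 5.37 CPM in MRL/lpr and 3.01, 3.25 and 3.54 CPM in MRL/lpr+MSC (log2 fold change 1.10, adjusted p = 0.032, limma voom, for MRL/lpr+MSC against MRL/mpj). In contrast to Cd74, its 3 MRL/lpr+MSC libraries were close to each other. Tap1 had 3.59, 2.45 and 3.05 CPM in MRL/mpj, 27.2, 14.8 and 6.59 CPM in MRL/lpr and 5.50, 5.90 and 6.89 CPM in MRL/lpr+MSC (log2 fold change 1.04, adjusted p = 0.0334, limma voom).

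**Figure D3:**
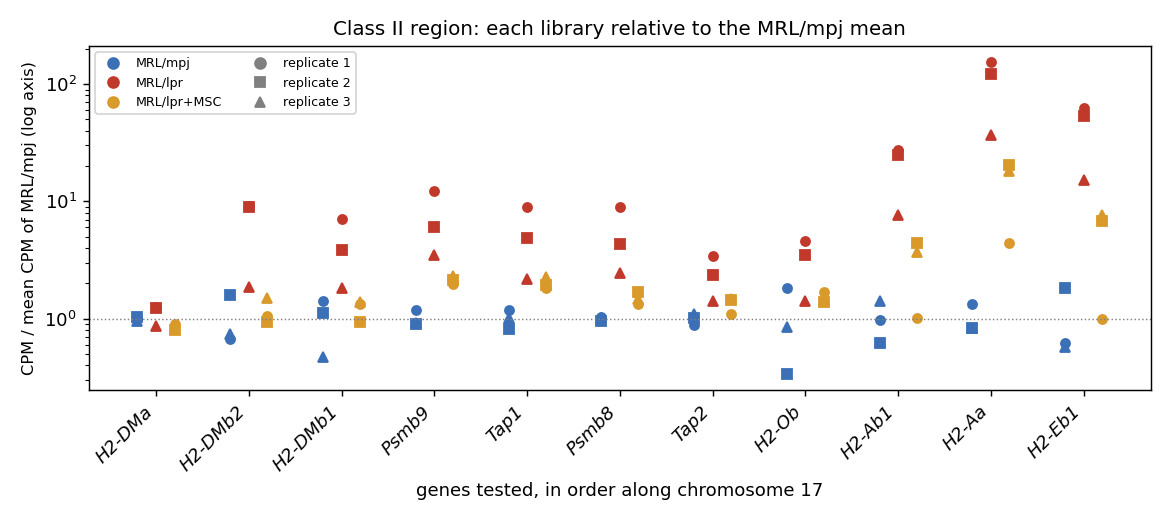
CPM of each library divided by the MRL/mpj mean, on a log axis, for the 11 tested genes between H2-DMa and H2-Eb1 in their order along chromosome 17, with colour for the group and marker shape for the replicate. H2-Aa reaches the highest ratio, 156 in MRL/lpr replicate 1, and H2-DMa, at the other end, stays between 0.8 and 1.26 in all libraries.

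The transcription factors that act with Ciita differed little. Of 7 genes (Rfx5, Rfxap and Rfxank of the RFX complex, Nfya, Nfyb and Nfyc of NF-Y, and Creb1), 0 were called in any of the 4 comparisons by limma voom. In MRL/lpr against MRL/mpj their median log2 value was 0.12, and 2 of 7 had an unadjusted p under 0.05, against 30.4% of all genes tested. Rfx5 had an adjusted p of 0.0435 (limma voom) there at a log2 fold change of 0.54, which was under the required 1.5-fold. Among 9 genes of endosomal processing and turnover, such as the cathepsins Ctss, Ctsl, Ctsb and Ctsd, 0 were called by limma voom in any comparison, 3 had an unadjusted p under 0.05 in MRL/lpr against MRL/mpj, and the median there was 0.13.

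Of 13 regulators of Ciita, 12 were tested in MRL/lpr against MRL/mpj, and 2 rose and 0 fell. Over all genes tested, 3.41% were called as higher and 2.38% as lower. The median log2 fold change was 0.50, against 0.02 over all genes tested. Irf1, an interferon-induced transcription factor that acts on Ciita, had 5.44, 5.72 and 5.44 CPM in MRL/mpj and 19.2, 14.5 and 9.59 CPM in MRL/lpr (log2 fold change 1.35, adjusted p = 0.049, limma voom). Socs1, a feedback inhibitor of cytokine signalling, had 0.449, 0.301 and 0.544 CPM in MRL/mpj and 3.14, 1.64 and 1.27 CPM in MRL/lpr (log2 fold change 2.15, adjusted p = 0.0473, limma voom). With 7 to 10 counts per MRL/mpj library, Socs1 passed the filter on low counts only through MRL/lpr. Its call therefore carries no weight as a test. Neither Irf1 nor Socs1 was called in another comparison, and the MRL/lpr+MSC libraries had 6.17 to 7.03 CPM of Irf1 and 0.570 to 0.743 CPM of Socs1. Ifng, which encodes interferon gamma, failed the filter on low counts, with 0 counts in all MRL/mpj libraries, 14, 9 and 4 counts in the MRL/lpr libraries and 0, 1 and 0 counts in MRL/lpr+MSC.

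Of 10 genes of costimulation and of receptors for class II, 6 were tested in MRL/lpr against MRL/mpj, and 0 were called there by limma voom, with 2 at an unadjusted p under 0.05, a share near the 30.4% of all genes tested. Lag3, an inhibitory receptor that binds class II, fell in MRL/lpr+MSC against MRL/mpj, where 1.5% of all genes tested were called as lower. Its levels were 5.49, 5.24 and 5.55 CPM in MRL/mpj, 6.74, 2.58 and 2.87 CPM in MRL/lpr and 1.66, 1.81 and 2.52 CPM in MRL/lpr+MSC (log2 fold change -1.44, adjusted p = 0.011, limma voom).

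Of 9 class I presentation genes, 2 rose in MRL/lpr against MRL/mpj, B2m and Erap1, where 3.41% of all genes tested were called as higher. The fitted log2 value was positive for 8 of the 9 and negative for H2-D1 (-0.33). The median was 1.96, against 0.02 over all genes tested. B2m, the light chain of class I, had 69.6, 56.8 and 63.9 CPM in MRL/mpj, 399.6, 210.1 and 176 CPM in MRL/lpr and 90.6, 137 and 149 CPM in MRL/lpr+MSC. It was called as higher in MRL/lpr against MRL/mpj (log2 fold change 1.96, adjusted p = 0.0176, limma voom), in MRL/lpr+MSC against MRL/mpj (0.96, adjusted p = 0.0411, limma voom) and in both MRL/lpr groups against MRL/mpj (1.45, adjusted p = 0.0127, limma voom). In the last of these, 2.65% of all genes tested were called as higher. B2m was thus called whichever way the labels stand, which none of the 8 class II genes was. Erap1, which trims peptides, had 10.3, 10.1 and 8.27 CPM in MRL/mpj and 19.6, 17.8 and 13.9 CPM in MRL/lpr (log2 fold change 0.83, adjusted p = 0.0352, limma voom).

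The summed markers of T cells, B cells, monocytes, dendritic cells and endothelium were higher in every MRL/lpr library than in every MRL/mpj library. The same held for most of the 8 genes, and the part of these cells in the result was not tested. The margin was narrow for dendritic cells, with at least 21.0 CPM in MRL/lpr and at most 20.7 CPM in MRL/mpj. The sums of border-associated macrophage and microglia markers were not separated in that way. The 7 T cell markers summed to 1.74 to 2.35 CPM in MRL/mpj, 6.51 to 19.3 CPM in MRL/lpr and 2.39 to 4.24 CPM in MRL/lpr+MSC. Of the 7, 5 rose in MRL/lpr against MRL/mpj, namely Cd3d, Cd3e, Cd8a, Cd3g and Cd2, where 3.41% of all genes tested were called as higher. Cd3d, Cd3e, Cd3g and Cd2 had at most 2 counts in any MRL/mpj library and passed the filter on low counts only through MRL/lpr. Only 1 of the 7 was tested in MRL/lpr+MSC against MRL/mpj. The count of 5 therefore carries no weight as a test. The log2 fold change was 4.52 for Cd8a. No fold is given for Cd3d and Cd3e, whose MRL/mpj counts lay under the limit of 3 counts. Their levels in MRL/lpr were 0.549 to 2.31 CPM for Cd3d and 0.718 to 2.38 CPM for Cd3e. Cd3g and Cd2 had 0 counts in all 3 MRL/mpj libraries, so no fold is given for them, and their levels in MRL/lpr were 2.94, 1.85 and 0.803 CPM for Cd3g and 1.75, 1.12 and 0.465 CPM for Cd2. The order of the MRL/lpr libraries was that of the class II genes, with replicate 1 highest and replicate 3 lowest.

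The 9 B cell markers summed to 1.85 to 2.55 CPM in MRL/mpj, 5.03 to 7.55 CPM in MRL/lpr and 2.02 to 3.02 CPM in MRL/lpr+MSC. Cd79a, a chain of the B cell receptor, rose in MRL/lpr against MRL/mpj (log2 fold change 2.51, adjusted p = 0.0446, limma voom), where 3.41% of all genes tested were called as higher. It had 0.163 to 0.699 CPM in MRL/mpj and 1.18 to 2.38 CPM in MRL/lpr. With 3 to 14 counts per MRL/mpj library, Cd79a passed the filter on low counts only through MRL/lpr. Its call therefore carries no weight as a test. Fcrla had 0 counts in all MRL/mpj libraries. The 4 monocyte markers summed to 0.490 to 1.80 CPM in MRL/mpj, 2.03 to 16.2 CPM in MRL/lpr and 0.726 to 2.97 CPM in MRL/lpr+MSC, with no call among the 3 tested, the most abundant being Ly6c2 and Ccr2.

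The 9 dendritic cell markers summed to 17.2 to 20.7 CPM in MRL/mpj, 21.0 to 31.3 CPM in MRL/lpr and 16.6 to 19.9 CPM in MRL/lpr+MSC. Of 7 tested in MRL/lpr against MRL/mpj, Clec10a rose (log2 fold change 1.23) and Cd209a fell (log2 fold change -2.43), and both are lectin receptors. Over all genes tested, 3.41% were called as higher and 2.38% as lower. Cd209a had 1 to 6 counts per MRL/lpr library and passed the filter on low counts only through MRL/mpj. Its call therefore carries no weight as a test. Flt3 and Zbtb46, the most abundant of the list, are also expressed outside dendritic cells. The 7 markers of border-associated macrophages summed to 14.7 to 31.9 CPM in MRL/mpj, 18.5 to 23.0 CPM in MRL/lpr and 8.66 to 23.5 CPM in MRL/lpr+MSC, where replicate 1 had the lowest sum, with no call, and Mrc1 was the most abundant. The 10 markers of homeostatic microglia summed to 359.9 to 388 CPM in MRL/mpj, 294 to 373 CPM in MRL/lpr and 293 to 332 CPM in MRL/lpr+MSC. Among them, Fcrls fell in MRL/lpr against MRL/mpj and in MRL/lpr+MSC against MRL/mpj (log2 fold changes -1.62 and -1.58). Over all genes tested, 2.38% and 1.5% were called as lower in these comparisons. The most abundant microglia marker, Csf1r, did not pass the test in any comparison.

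**Figure D4:**
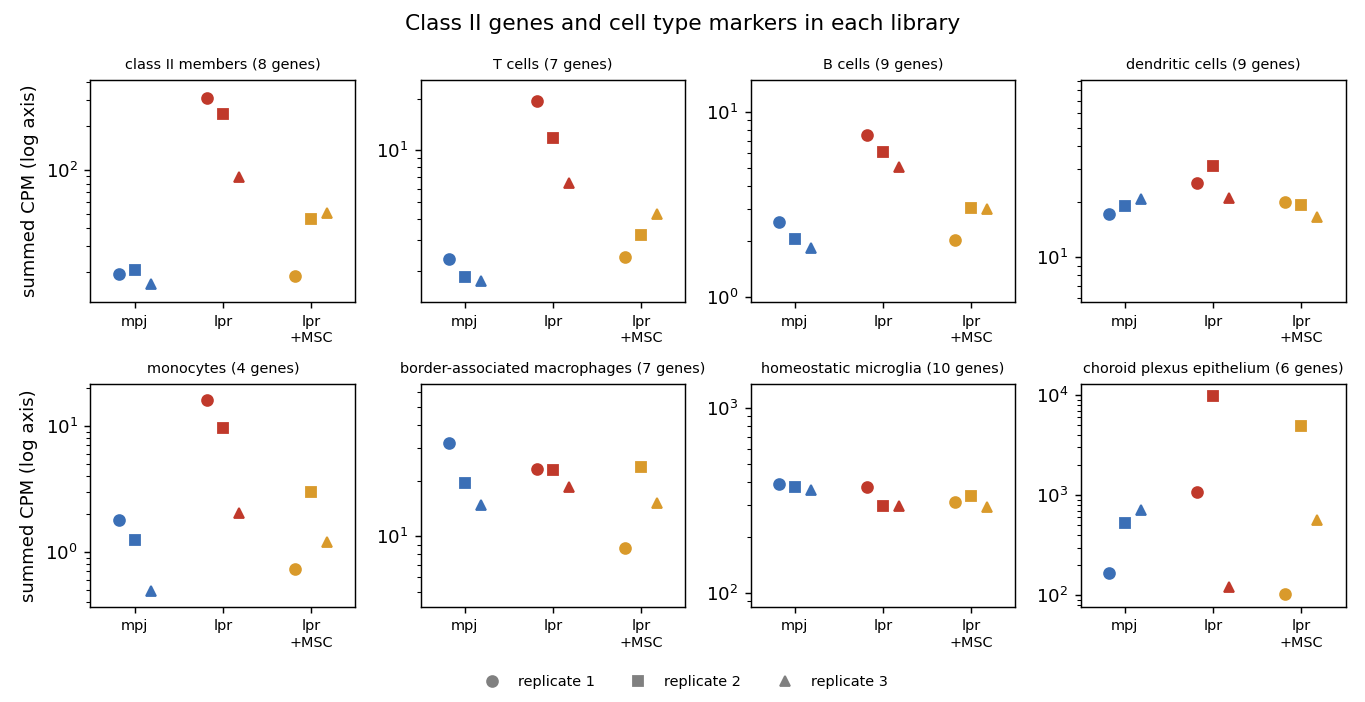
Summed CPM per library, on log axes that span a different range in each panel, for the 8 class II genes and 7 lists of cell type markers, with 1 point per library. The class II sum is 16.4 to 20.4 CPM in MRL/mpj and 89.9 to 311 CPM in MRL/lpr. Its order of MRL/lpr libraries is also that of T cell, B cell, monocyte, border-associated macrophage and homeostatic microglia markers. The choroid plexus sum peaks in replicate 2 of both MRL/lpr groups.

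Other resident cells were followed as well. The 6 choroid plexus markers summed to 168 to 708 CPM in MRL/mpj, 120 to 9703 CPM in MRL/lpr and 103 to 4871 CPM in MRL/lpr+MSC, with no call and another order of libraries than the class II genes. Without MRL/lpr replicate 2, the library with the highest sum, Cd74 was still the only 1 of the 8 genes called in MRL/lpr against MRL/mpj (adjusted p = 0.0415, limma voom). The 5 meningeal fibroblast markers summed to 53.7 to 142 CPM in MRL/mpj, 81.4 to 207 CPM in MRL/lpr and 51.1 to 91.6 CPM in MRL/lpr+MSC, with no call. Of 5 endothelial markers, Cldn5, a tight junction gene, rose in both MRL/lpr groups against MRL/mpj (log2 fold change 0.80), where 2.65% of all genes tested were called as higher. The endothelial sums were 212 to 236, 249 to 266 and 265 to 287 CPM. Of the 7 neuronal markers, Spink8 and Fibcd1 fell in MRL/lpr against MRL/mpj (log2 fold changes -0.74 and -1.11), the latter being a marker of CA1. There, 2.38% of all genes tested were called as lower.

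The 10 genes most like the 8 genes across the 9 libraries were found by the Pearson correlation of log2(CPM + 0.5) with the mean of the standardised class II values, among 14940 other genes whose mean over all libraries reached 1 CPM. They were the chemokines Cxcl9 (r = 0.994), Cxcl10 (0.992), Cxcl13 (0.989), Ccl8 (0.987) and Cxcl11 (0.984), the leukocyte genes Ptprc (0.992), Lcp1 (0.990) and Itgal (0.983), the chemokine receptor Ccr2 (0.989) and Parp14 (0.989). The mean level of Cxcl9 was 0.0181 CPM in MRL/mpj, 8.70 in MRL/lpr and 0.344 in MRL/lpr+MSC, and that of Ptprc, which encodes CD45, was 3.96, 15.9 and 5.10 CPM. Ccr2 was also on the monocyte list. Since all coefficients rest on the same 9 libraries and largely on the MRL/lpr group, they are given without a test.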

How the data were processed

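Poly(A)-selected hippocampal RNA of 9 libraries was sequenced. The authors aligned reads to GRCm38 and counted them per gene, with STAR and HTSeq according to the study and TopHat2 according to the submitters' processing notes. They deposited raw counts of 47643 genes in 1 matrix and FPKM per library. The study reports input of another amount of RNA than the labels. The 0 columns without a sample and the 0 values that were not whole numbers left nothing out. Symbols from GENCODE on GRCm38 matched 47224 genes. The reference is of C57BL/6, so reads from alleles that differ in MRL mice may be lost.

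Counts were scaled by TMM (30% of log ratios and 5% of levels trimmed). A gene was tested if 3 or more libraries exceeded the CPM that 10 counts give at the median library total and its counts summed to 15 or more. In R 4.3.3, limma voom was run with limma 3.58.1 and, for robust moderation, statmod 1.5.0, and p-values were adjusted by Benjamini-Hochberg across every gene tested. Each pair of groups was fitted on its own 6 libraries, and the mean of both MRL/lpr groups on all 9. The planned quasi-likelihood test and DESeq2 were not run because the separator of the matrix kept its values from being registered as counts. The planned voom alternative took their place. Replicates are taken as separate mice, as the study implies, and p-values measure the spread between these libraries. Each FPKM file matched its own library over 12235 genes, and no pair of replicates was alike within sampling noise (the lowest chi-square per gene was 10.7). The method was tested on simulated data with the same spread for every gene and with changes only in genes above a count limit. It therefore does not show how the method behaves at the low and variable counts of most class II genes. Tables were made with Python 3.11.15, pandas 2.3.3 and numpy 2.4.6 and figures with matplotlib 3.10.9.

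The 8 genes, the pathway and marker lists and the tests were chosen with earlier results of these data known. The text names the 8 genes, the called genes of each list (1 result is not reported here), the other class II genes, the most abundant markers of some lists and the 10 most similar genes. Alternatives were other size factors, filters, fits and call rules, the replicate number as a block, and each library left out. limma-trend and library quality weights were added after the data were seen.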

Additional observations from a re-analysis of the deposited data

How the results depend on the processing

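Of the 4 comparisons, MRL/lpr+MSC against MRL/lpr had 0 genes called in every alternative run. In MRL/lpr against MRL/mpj, 967 genes and 1 of the 8 class II genes were called. The latter count was 0 with no filter on low counts, 2 with all 9 libraries in one fit, 4 with limma-trend and 7 with library quality weights, and ran from 0 to 7 when single libraries were left out. The number of genes called was 1553 with no minimum fold and 2065 with library quality weights, and 165 to 1695 (lowest without MRL/mpj replicate 3, highest with MRL/lpr replicate 2 left out) when single libraries were left out. In MRL/lpr+MSC against MRL/mpj, 556 genes and 0 class II genes were called, with 1177 and 2 under library quality weights, 1 class II gene with limma-trend, and 193 to 1514 genes and 0 to 4 class II genes (the highest of both without MRL/lpr+MSC replicate 1) when single libraries were left out. In both MRL/lpr groups against MRL/mpj, 834 genes and 0 class II genes were called, with 1473 genes with no minimum fold, 1938 genes and 4 class II genes under library quality weights, 4 class II genes with limma-trend, and 348 to 1243 genes and 0 to 5 class II genes when single libraries were left out. The log2 fold change of H2-DMa there ran from -0.11 to 0.033 when single libraries were left out, and was positive only without MRL/lpr replicate 3. No other fitted value of the 8 genes changed sign. Apart from the left-out libraries and filters, the cause was not tested.

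No source ties libraries that share a replicate number, so they were not taken as pairs. Libraries of equal number deviated together with r of -0.01, 0.13 and 0.06 in MRL/lpr against MRL/mpj. The r was -0.09, 0.10 and 0.13 in MRL/lpr+MSC against MRL/mpj, and -0.21, 0.25 and 0.41 in MRL/lpr+MSC against MRL/lpr. With the replicate block, 7 class II genes were called in MRL/lpr against MRL/mpj, all but H2-DMa, and the count of genes was 1333. In MRL/lpr+MSC against MRL/mpj the block gave 280 genes and 0 class II genes. In each pairwise comparison, replicates 2 and 3 correlated best with their own number and replicate 1 did not. The quasi-likelihood test and DESeq2 were planned and not run. In MRL/lpr against MRL/mpj, the standard error of the log2 fold change was largest for H2-Aa (1.87) and H2-Eb1 (1.56) among the 8 genes.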

Other observations

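The classical class I genes H2-K1 and H2-D1 lie outside the 8 genes and were singled out after their values were seen. H2-K1 had 19.97, 1.93 and 12.8 CPM in the MRL/mpj libraries, 168, 79.6 and 42.2 CPM in MRL/lpr and 16.9, 27.3 and 30.1 CPM in MRL/lpr+MSC. H2-D1 had 112, 4.21 and 98.8 CPM in MRL/mpj, 50.1, 18.5 and 18.8 CPM in MRL/lpr and 4.93, 10.9 and 12.7 CPM in MRL/lpr+MSC. Replicate 2 of MRL/mpj was the lowest of its group for both genes. Neither gene was called in any comparison, with adjusted p of 0.0738 for H2-K1 and 0.888 for H2-D1 in MRL/lpr against MRL/mpj (limma voom).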
